A study of Mus musculus with 8 samples.

Results

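Chemokines and their receptors were examined in hearts of mice lacking Gpihbp1 and in wild-type hearts. The members are the genes of the deposited table whose symbol begins Ccl or Cxcl followed by a number, or consists of Ccr or Cxcr and a number, together with Cx3cl1, Cx3cr1, Xcl1, Xcr1, Pf4, Ppbp and Ackr1, Ackr2, Ackr3 and Ackr4. This rule found 57 of the 17190 genes listed, of which 36 encode ligands, 17 signalling receptors and 4 atypical receptors. Gpihbp1 encodes the endothelial protein that holds lipoprotein lipase on the capillary wall, and mice without it accumulate triglyceride-rich lipoproteins in the blood. The 4 Gpihbp1-/- hearts carried the label numbers 1, 2, 3 and 4, and the 4 wild-type hearts the numbers 2, 4, 5 and 6. All mice were male and ate chow, and strain and age are not given in the sources used here. Polyadenylated RNA of the hearts was sequenced from strand-specific libraries. The stated question was how lack of Gpihbp1 affects the heart.

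Chemokines are small secreted proteins that attract leukocytes through G protein-coupled receptors. Inducible chemokines such as Ccl2 are made by macrophages, fibroblasts and endothelial cells in inflamed tissue, and in the injured heart Ccl2 draws monocytes that carry Ccr2. Homeostatic chemokines such as Cxcl12 and Ccl21a are made continuously and place cells in tissue and lymphoid organs. Atypical receptors bind chemokines without the usual G protein signal and remove them from the surroundings.

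Total counts ran from 9065561 to 13492971 per library. Gpihbp1 itself had 0, 0, 1 and 0 counts in Gpihbp1-/- 1, 2, 3 and 4, against 1108, 1951, 833 and 1783 counts in wild-type 2, 4, 5 and 6. The cardiomyocyte markers were summed in CPM (counts scaled to library size, with TMM factors). They reached 60700, 37100, 86400 and 79100 CPM in Gpihbp1-/- 1, 2, 3 and 4. In wild-type 2, 4, 5 and 6 they reached 38600, 53000, 80100 and 102000 CPM. The lowest sum of each genotype was thus in the heart numbered 2. Gpihbp1-/- 2 and wild-type 2 stood apart from the other 6 libraries. The first principal component held 53.1% of the variance and placed Gpihbp1-/- 2 at 81.02 and wild-type 2 at 86.21, with the other 6 between -42.38 and -19.19. The atrial transcripts Myl4 and Myl7 were abundant in wild-type 6, at 974 CPM for Myl4 and 427 CPM for Myl7. Myl4 ran from 1.97 to 2.45 CPM in Gpihbp1-/- hearts and from 1.83 to 2.37 CPM in the other 3 wild-type hearts, and Myl7 stayed at 0.489 CPM or lower in those 7 libraries. Nppa, also on the atrial list, was high in wild-type 6 (3260 CPM) and in Gpihbp1-/- 2 (4470 CPM) and wild-type 2 (3130 CPM). It ran from 157 to 298 CPM in the remaining hearts. The labels say heart and name no chamber. The labels name no batch, and do not state that hearts with the same number were handled together. The p-values therefore measure the spread between these 8 hearts only.

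No chemokine or receptor gene differed between the genotypes beyond the spread between hearts. Of the 57 members, 34 passed the filter on low counts and 23 did not. edgeR's quasi-likelihood test, adjusted over all 12826 genes tested, called 0 of the 34 members, and 0.0312% of all tested genes were called. The adjusted p was 0.99998 for every tested member. At an unadjusted p under 0.05, edgeR counted 1 member as higher in Gpihbp1-/- hearts, the neutrophil receptor Cxcr2, where the share over all tested genes was 0.249%. It counted 0 members as lower, where the share was 0.655%. limma-voom also called 0 members, as did DESeq2 among the 23 members to which it gave a p, with none given for the other 11. For 0 members did the hearts of the genotypes fall into ranges that do not overlap, where 0.265% of all tested genes were higher and 0.366% lower without overlap.

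The log2 fold changes of the tested members (Gpihbp1-/- over wild type) ran from -1.25 to 1.54, with a median of 0.12, against -0.019 over all tested genes. They were positive for 18 members and negative for 16. The standard errors were wide: their median was 0.66 among members and 0.33 over all tested genes. A p above the threshold does not show that the genotypes were alike, since the 95% intervals of many members allowed changes of several fold either way. In bulk heart RNA, fewer cells of a type and less RNA per cell cannot be told apart.

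**Figure D1:**
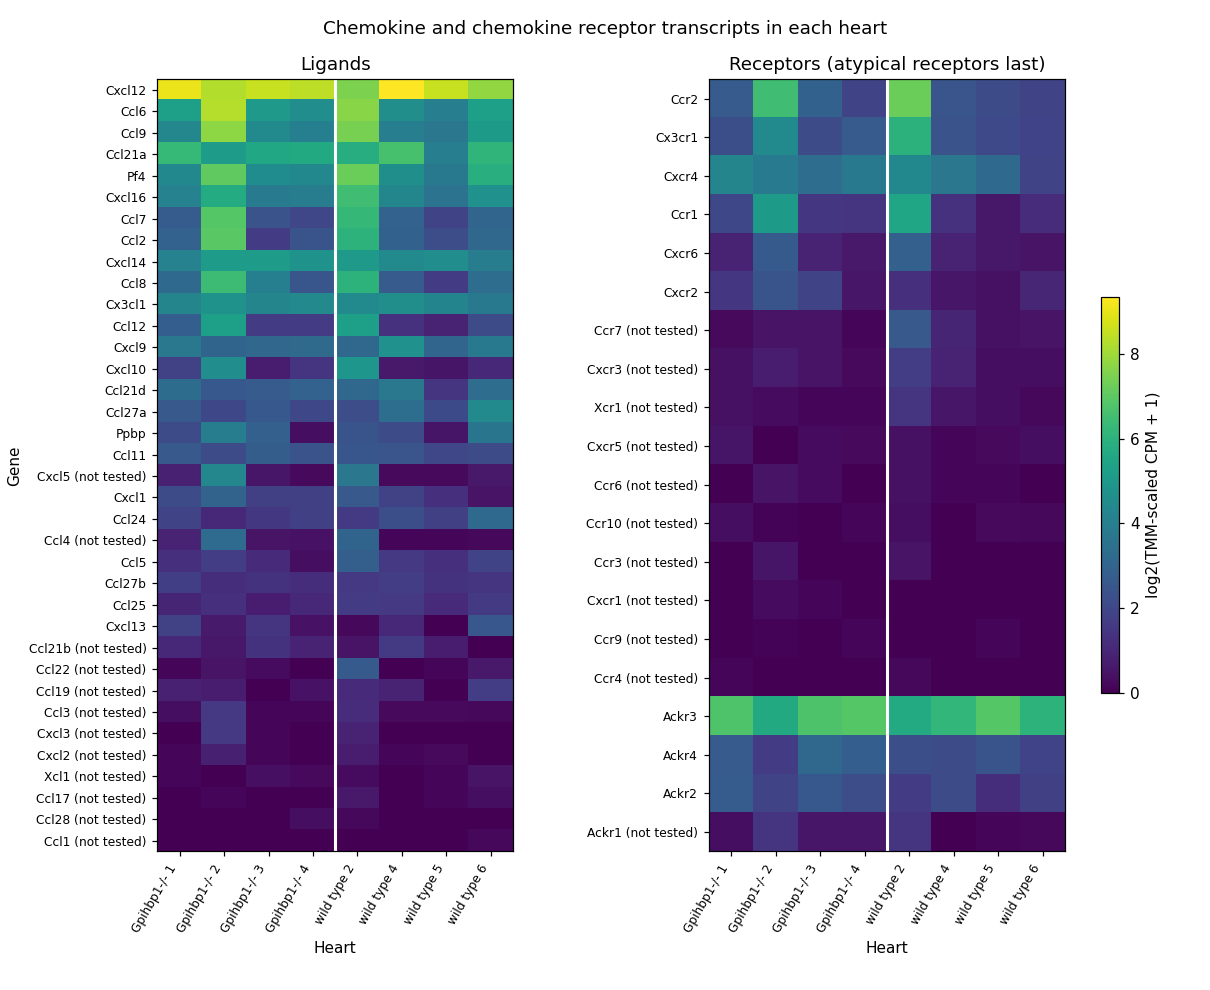
Level of members in each heart, as log2 of TMM-scaled CPM plus 1, with Gpihbp1-/- hearts left of the white line and wild-type hearts right of it. Ccl6, Ccl9, Ccl7, Ccl2 and Ccr2 were brightest in the hearts numbered 2 of both genotypes, while Cxcl12 and Ackr3 were bright in all 8.

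**Figure D2:**
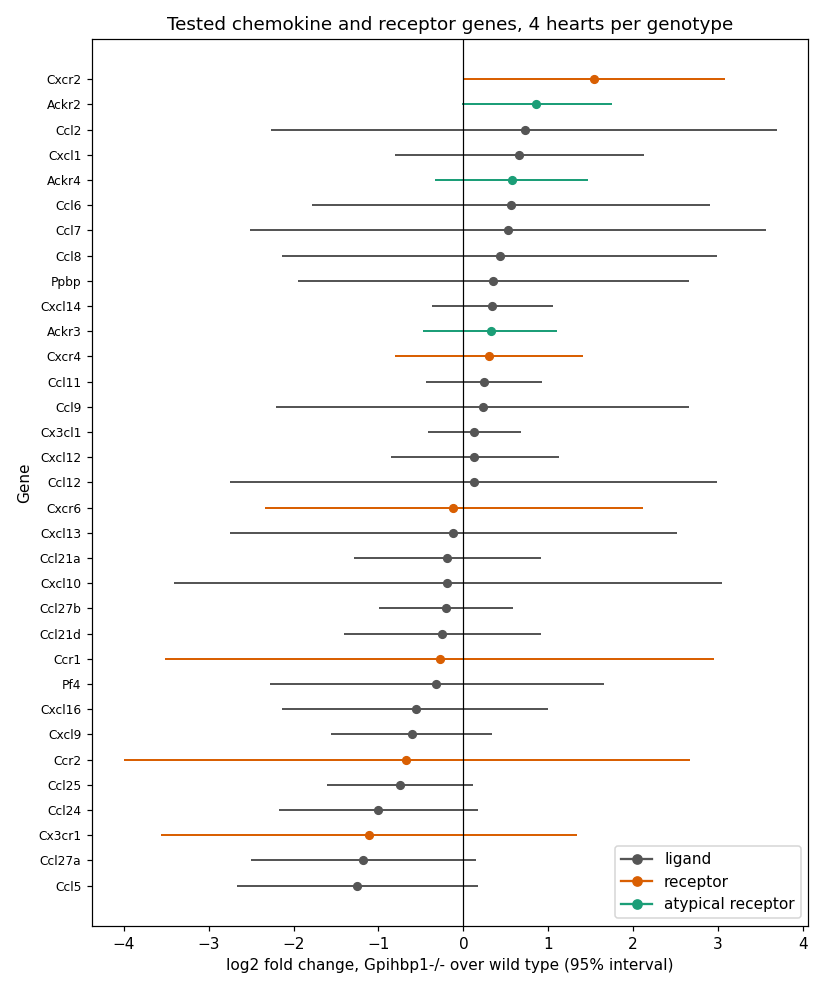
Log2 fold changes of tested members, Gpihbp1-/- over wild type, with its 95% interval from edgeR (4 hearts per genotype). The interval of Cxcr2 runs from 0.01 to 3.07 and is the only one drawn that excludes 0.

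Levels between genes were compared in TPM, a relative abundance that accounts for transcript length. Over the 8 hearts Cxcl12 had the highest median of the members, at 128 TPM, with a range from 43.4 to 243 TPM. It was followed by Ccl21a at a median of 98.0, Pf4 at 83.5 and Ackr3 at 60.9 TPM, and the ranges of these neighbours overlapped. Ccl8, Ccl6, Cxcl14, Cxcl16 and Ccl27a came next, at medians of 33.7, 29.0, 21.4, 16.1 and 16.1 TPM. The span over hearts differed between members: Ccl2 ran from 4.63 to 324 TPM around a median of 12.8, whereas Cx3cl1 ran from 2.38 to 13.3 TPM around a median of 8.62.

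The receptor Ccr2 and its ligands were high in 1 heart of each genotype. Ccl2 (NCBI gene 20296), the main attractant of inflammatory monocytes, had 6.63, 122, 2.15 and 4.43 CPM in Gpihbp1-/- 1, 2, 3 and 4, against 64.1, 6.56, 3.58 and 8.01 CPM in wild-type 2, 4, 5 and 6. The heart numbered 2 was far above the rest in both genotypes, and the groups overlapped. The means were 33.9 ± 58.9 CPM in Gpihbp1-/- hearts and 20.6 ± 29.1 CPM in wild-type hearts (SD, n = 4 each). Ccl2's log2 fold change was 0.72 (SE, the standard error, 1.32; edgeR unadjusted p = 0.600, adjusted p = 0.99998). Leaving out Gpihbp1-/- 2 turned Ccl2's log2 fold change to -2.22, and leaving out wild-type 2 gave 2.49. With neither of these hearts it was -0.44 (SE 0.46).

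Ccl7 (NCBI gene 20306), a second monocyte attractant, measured 5.57, 116, 4.21 and 2.92 CPM in the Gpihbp1-/- hearts, against 73.1, 6.65, 2.79 and 7.17 CPM in the wild-type hearts, both in label order. Ccl12 (NCBI gene 20293), a Ccr2 ligand of the mouse, measured 5.84, 37.4, 2.15 and 2.17 CPM in Gpihbp1-/- hearts, against 37.8, 1.52, 0.873 and 3.51 CPM in wild-type hearts. Both genes were again highest in the hearts numbered 2, and their groups overlapped. The log2 fold changes were 0.52 (SE 1.35) for Ccl7 and 0.12 (SE 1.27) for Ccl12. Ccr2 itself (NCBI gene 12772) had 5.39, 87.2, 6.46 and 2.73 CPM in Gpihbp1-/- hearts, against 151, 4.47, 3.41 and 2.81 CPM in wild-type hearts. Its highest heart was wild-type 2, and the other 6 hearts stayed at 6.46 CPM or lower and overlapped. The log2 fold change of Ccr2 was -0.67 (SE 1.48), -3.06 without Gpihbp1-/- 2 and 2.83 without wild-type 2.

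Ccr1 (NCBI gene 12768), a receptor of macrophages and other leukocytes, followed the same hearts. It measured 3.10, 33.0, 1.76 and 1.70 CPM in Gpihbp1-/- hearts, against 44.8, 1.52, 0.524 and 1.26 CPM in wild-type hearts. Over all 8 hearts the genotypes overlapped, with a log2 fold change of -0.28 (SE 1.43). Among the 6 hearts other than those numbered 2, each Gpihbp1-/- heart lay above each wild-type heart. In the edgeR fit of those 6 hearts, Ccr1 had a log2 fold change of 1.0 (SE 0.50, unadjusted p = 0.0783). Summed macrophage and monocyte markers overlapped among those 6 hearts, at 803, 892 and 752 CPM in Gpihbp1-/- 1, 3 and 4 and 802, 599 and 979 CPM in wild-type 4, 5 and 6. The part of macrophages and monocytes in the Ccr1 values was not tested.

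In that fit of 6 hearts 32 members were tested, without Cxcr2, Cxcr6 and Cxcl10, which did not pass its filter, and 0 passed the adjusted threshold, where 0.0235% of all 12766 genes tested did. At an unadjusted p under 0.05 it counted 3 members as higher in Gpihbp1-/- hearts, Ackr2 and Ackr4 among them, where the share over all genes was 0.454%, and 0 as lower, where it was 0.705%. Without overlap between the genotypes, 4 members were higher (Ccr1, Ackr2 and Ackr4 among them; 2.26% of all genes) and 2 were lower (Ccl5 and Ccl25; 2.45% of all genes). The count of genes without overlap over 6 hearts was added after the values were seen. The median log2 fold change of the members was 0.02 there, with a median standard error of 0.45.

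Among the ligands of Ccr1, Ccl6 (NCBI gene 20305), a mouse chemokine made by myeloid cells, had 38.0, 317, 32.0 and 22.9 CPM in Gpihbp1-/- hearts, against 202, 23.3, 15.1 and 37.8 CPM in wild-type hearts. Ccl9 (NCBI gene 20308), another mouse ligand of Ccr1, had 18.9, 212, 20.6 and 15.5 CPM in Gpihbp1-/- hearts, against 169, 14.8, 11.9 and 32.7 CPM in wild-type hearts. The hearts numbered 2 were several times above the others of their genotype, and the groups overlapped for both ligands. The log2 fold changes were 0.56 (SE 1.04) for Ccl6 and 0.23 (SE 1.08) for Ccl9.

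Ccl5 (NCBI gene 20304), a ligand of Ccr1 made largely by T cells and NK cells, had 1.42, 2.23, 1.17 and 0.283 CPM in Gpihbp1-/- hearts, against 6.06, 1.90, 1.48 and 2.81 CPM in wild-type hearts. Per length, its median over the 8 hearts was 7.14 TPM, next to Ccl9 at 8.12 TPM. Ccl5 had the lowest fold change of the tested members, a log2 value of -1.25 (SE 0.63, edgeR unadjusted p = 0.0769, adjusted p = 0.99998). Without Gpihbp1-/- 2 the unadjusted p was 0.0370, and without wild-type 2 it was 0.303. The summed T cell and NK cell markers ran from 4.14 to 7.48 CPM in Gpihbp1-/- hearts and from 4.98 to 11.7 CPM in wild-type hearts, and their part in the Ccl5 values was not tested. The ligands Ccl3 and Ccl4 did not pass the filter. Ccl4 had 0.884, 8.66, 0.392 and 0.377 CPM in Gpihbp1-/- hearts, against 6.97, 0.0950, 0.0873 and 0.141 CPM in wild-type hearts. Ccl3 reached at most 1.90 CPM, in Gpihbp1-/- 2.

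Ccl8 (NCBI gene 20307), in the mouse a ligand of Ccr8, had 8.23, 82.9, 15.2 and 4.62 CPM in Gpihbp1-/- hearts, against 65.5, 5.42, 2.18 and 9.14 CPM in wild-type hearts. The hearts numbered 2 were again highest and the groups overlapped, with a log2 fold change of 0.43 (SE 1.13). Cx3cr1 (NCBI gene 13051), the receptor of patrolling monocytes and many tissue macrophages, had 3.71, 21.1, 3.52 and 5.37 CPM in Gpihbp1-/- hearts, against 62.9, 4.18, 3.14 and 2.67 CPM in wild-type hearts. Its log2 fold change was -1.11 (SE 1.09), and without the hearts numbered 2 it was 0.32 (SE 0.34). Cx3cl1 (NCBI gene 20312), its membrane-bound ligand, behaved differently across hearts. Cx3cl1 measured 18.1, 26.1, 17.9 and 19.8 CPM in Gpihbp1-/- hearts, against 20.8, 23.5, 17.6 and 12.8 CPM in wild-type hearts. No heart stood several-fold from the others, the groups overlapped, and the 95% interval of the log2 fold change of 0.13 ran from -0.41 to 0.67.

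**Figure D3:**
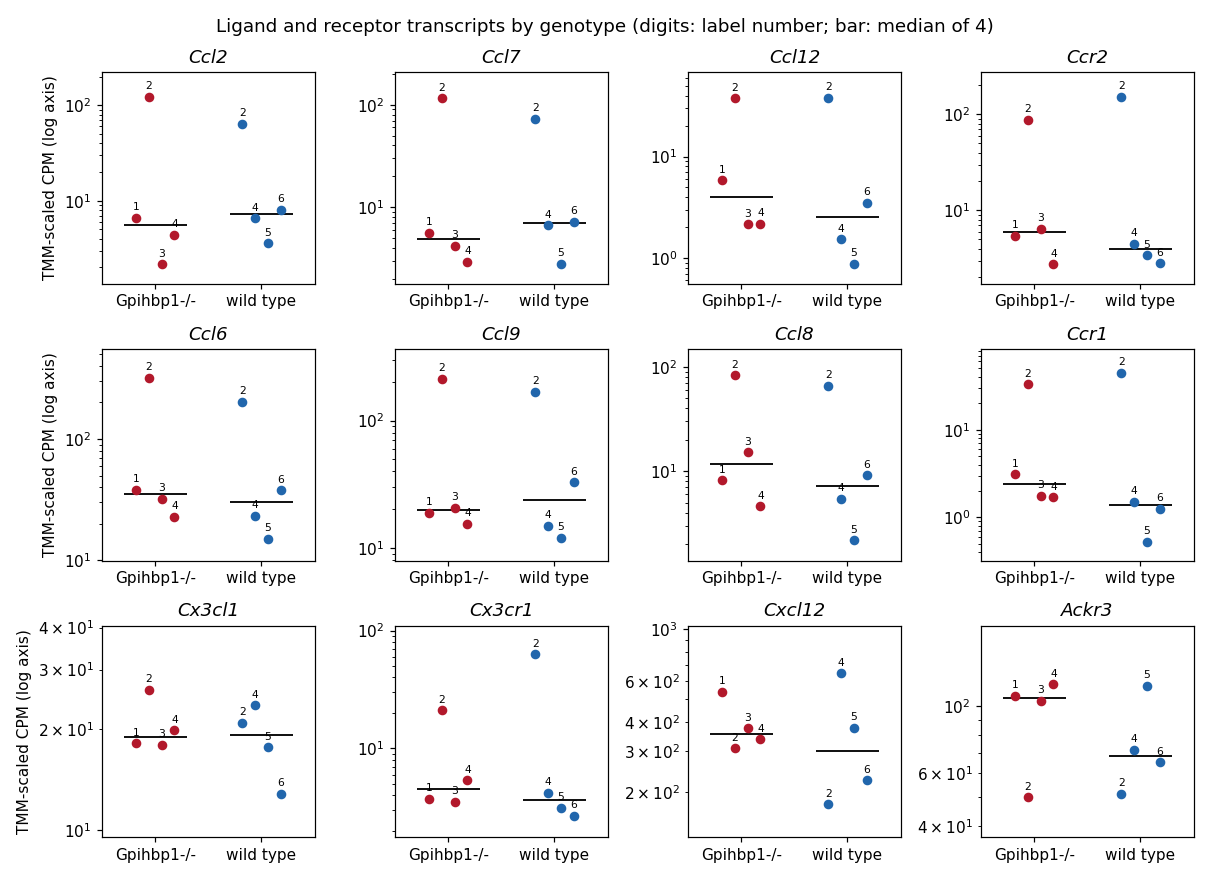
TMM-scaled CPM (log axis) of 12 ligands and receptors, with Gpihbp1-/- hearts left and wild-type hearts right in each panel, digits giving label numbers and bars the median of 4. The hearts numbered 2 lie above the others of their genotype for Ccl2, Ccl7, Ccl12, Ccr2, Ccl6, Ccl9, Ccl8, Ccr1 and Cx3cr1, and below them for Cxcl12 and Ackr3.

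Markers of monocytes and macrophages moved with these members. Their summed level over 17 genes was 803, 4510, 892 and 752 CPM in Gpihbp1-/- hearts, against 5670, 802, 599 and 979 CPM in wild-type hearts. Cd68, a macrophage lysosomal protein, had 15.4, 217, 18.3 and 18.1 CPM in Gpihbp1-/- hearts, against 192, 17.7, 14.3 and 19.8 CPM in wild-type hearts. Timd4, a marker of long-lived resident macrophages, did not share this pattern, at 3.18, 1.90, 2.06 and 2.64 CPM in Gpihbp1-/- hearts, against 0.836, 3.14, 2.97 and 3.79 CPM in wild-type hearts. All 17 markers passed the filter, and 13 of them were highest of their genotype in both hearts numbered 2. Fibroblast markers summed to 2970, 9480, 2380 and 2700 CPM in Gpihbp1-/- hearts, against 8380, 3030, 2760 and 3510 CPM in wild-type hearts. Endothelial markers went the other way, and 10 of 11 tested were lowest of their genotype in both hearts numbered 2. The part of these cell types in the chemokine values was not tested.

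Cxcr2 (NCBI gene 12765), the receptor by which neutrophils follow the chemokines of the Cxcl1 group, had the highest fold change of the tested members. It measured 1.77, 4.40, 2.74 and 0.471 CPM in Gpihbp1-/- hearts, against 1.39, 0.475, 0.349 and 0.984 CPM in wild-type hearts. Of the Gpihbp1-/- hearts 3 lay above all wild-type hearts and the fourth lay inside the wild-type range. The means were 2.34 ± 1.65 CPM in Gpihbp1-/- hearts and 0.80 ± 0.481 CPM in wild-type hearts (SD, n = 4 each). The log2 fold change was 1.54 (SE 0.68, 95% interval 0.01 to 3.07), with an edgeR unadjusted p of 0.0483 and an adjusted p of 0.99998. When 1 library was left out, the unadjusted p ran from 0.0115 to 0.163 and was under 0.05 in 2 of 8 fits, those without Gpihbp1-/- 4 and without wild-type 2.

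Neutrophil markers followed Cxcr2 in part. They summed to 37.3, 182, 105 and 11.8 CPM in Gpihbp1-/- hearts, against 76.7, 17.5, 9.95 and 47.8 CPM in wild-type hearts. The sum was lower in Gpihbp1-/- 1 than in wild-type 2 and 6, whereas Cxcr2 was higher in Gpihbp1-/- 1 than in either. S100a8, a granulocyte calcium-binding protein, had 8.67, 29.7, 25.1 and 0.754 CPM in Gpihbp1-/- hearts, against 3.34, 2.0, 0.699 and 11.2 CPM in wild-type hearts. As for Cxcr2, Gpihbp1-/- 2 and 3 were the highest and Gpihbp1-/- 4 was low. The marker with the smallest p was Mmp9, a granule protease, at 2.03, 15.6, 6.66 and 2.64 CPM in Gpihbp1-/- hearts, against 2.93, 2.66, 2.01 and 1.69 CPM in wild-type hearts (log2 fold change 1.53, SE 0.62, edgeR unadjusted p = 0.0347, adjusted p = 0.99998). Csf3r, also on the neutrophil list, was highest in wild-type 2, at 32.3 CPM, against 28.4 CPM in Gpihbp1-/- 2. Ly6g, a neutrophil surface marker, was at 0 in all wild-type hearts and at most 0.788 CPM in Gpihbp1-/- hearts. Of 11 neutrophil markers 5 were tested, all 5 had positive fold changes and 0 passed the adjusted threshold. Whether the Cxcr2 values follow the number of neutrophils was not tested.

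Of 5 listed ligands of Cxcr2, 2 passed the filter, Cxcl1 and the platelet chemokine Ppbp, whose values are given further below. Cxcl1 (NCBI gene 14825) had a log2 fold change of 0.66 (SE 0.65). It measured 3.54, 6.89, 2.45 and 2.45 CPM in Gpihbp1-/- hearts, against 5.08, 2.57, 1.48 and 0.422 CPM in wild-type hearts. Cxcl5, a neutrophil attractant, did not pass the filter. It had 0.796, 19.0, 0.489 and 0.188 CPM in Gpihbp1-/- hearts, against 12.1, 0.190, 0.175 and 0.562 CPM in wild-type hearts. Nearly all its reads came from the hearts numbered 2. Cxcl2 and Cxcl3 stayed under 2 CPM in every heart, and Cxcr1, a related neutrophil receptor, was at 0 in all wild-type hearts and at most 0.197 CPM in Gpihbp1-/- hearts.

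Cxcl9 and Cxcl10, interferon-induced ligands of Cxcr3, a receptor of activated T cells, differed from each other in which hearts they were high. Cxcl10 (NCBI gene 15945) had 2.56, 22.6, 0.685 and 1.70 CPM in Gpihbp1-/- hearts, against 29.1, 0.570, 0.437 and 1.12 CPM in wild-type hearts. Cxcl9 (NCBI gene 17329) had 12.2, 6.96, 7.44 and 8.48 CPM in Gpihbp1-/- hearts, against 7.94, 25.6, 7.25 and 12.8 CPM in wild-type hearts. Cxcl10 was highest in the hearts numbered 2 and Cxcl9 was not. The groups overlapped for both, with log2 fold changes of -0.19 (SE 1.43) for Cxcl10 and -0.61 (SE 0.42) for Cxcl9. Without wild-type 4 the log2 fold change of Cxcl9 was -0.07, and without wild-type 2 that of Cxcl10 was 3.32. Cxcr3 did not pass the filter and reached 2.23 CPM in wild-type 2.

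The promoters of these 2 nearby genes, and of Ccl8 and Ccl12, which lie next to each other and were high in the same hearts, are shown because their levels ran together or apart. Each is the 250 bases before the gene's start in RefSeq on GRCm38.p6, printed along the gene's strand, at chr5:92348890-92349139 (minus strand) for Cxcl10, chr5:92328080-92328329 (minus) for Cxcl9, chr11:82114935-82115184 (plus) for Ccl8 and chr11:82101595-82101844 (plus) for Ccl12. Capitals mark a match to the interferon-stimulated response element, taken as 2 copies of GAAA with any 2 bases between them, or the NF-kB motif on either strand, or to TATAAA, a form of the TATA box, on the gene's strand. A STAT motif, TTCNNNGAA, was searched as well and is in none of the 4.
Cxcl10: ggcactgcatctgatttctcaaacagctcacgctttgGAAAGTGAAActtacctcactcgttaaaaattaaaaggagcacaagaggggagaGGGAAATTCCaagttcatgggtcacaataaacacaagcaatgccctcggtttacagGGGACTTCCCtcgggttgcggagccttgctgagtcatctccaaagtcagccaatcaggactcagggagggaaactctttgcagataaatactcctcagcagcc
Cxcl9: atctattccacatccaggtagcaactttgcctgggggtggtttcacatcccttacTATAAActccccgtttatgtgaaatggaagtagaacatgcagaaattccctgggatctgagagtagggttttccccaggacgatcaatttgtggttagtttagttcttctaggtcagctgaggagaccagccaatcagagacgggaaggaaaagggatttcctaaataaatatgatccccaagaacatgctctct
Ccl8: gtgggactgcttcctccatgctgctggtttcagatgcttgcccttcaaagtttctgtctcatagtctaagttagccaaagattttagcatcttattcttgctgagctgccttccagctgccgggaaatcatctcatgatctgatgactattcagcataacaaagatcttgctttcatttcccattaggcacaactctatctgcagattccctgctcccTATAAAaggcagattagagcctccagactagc
Ccl12: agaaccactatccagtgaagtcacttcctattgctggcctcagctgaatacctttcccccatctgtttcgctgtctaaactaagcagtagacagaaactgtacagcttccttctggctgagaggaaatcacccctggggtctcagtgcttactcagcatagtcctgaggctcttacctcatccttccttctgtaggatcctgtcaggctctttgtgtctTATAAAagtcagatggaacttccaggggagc

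The Cxcl10 window held the interferon element 213 bases before the start and the NF-kB motif at 159 and 103 bases before it. In the Cxcl9 window the single marked match was TATAAA, 195 bases before the start. Ccl8 and Ccl12 both carried TATAAA, at 32 and 31 bases before the start. Among 52 promoters of the 45 members found in the table, the NF-kB motif was in 15.4%, against 3.9% of 32851 promoters of the same length. TATAAA was in 23.1% of member promoters and 7.59% of all. The interferon element was in 5.77% of member promoters and 2.98% of all, and TTCNNNGAA in 5.77% of member promoters and 7.02% of all. The members with the NF-kB motif were Cxcl1, Cxcl2, Cxcl3, Cxcl10, Ccl9, Ccr3, Ccr6 and Ackr2. These are matches of letters in a window, and no binding was measured here.

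Cxcl12 (NCBI gene 20315), which retains Cxcr4-bearing cells in tissues and is made by stromal and endothelial cells, had 540, 309, 376 and 337 CPM in Gpihbp1-/- hearts, against 178, 647, 377 and 225 CPM in wild-type hearts. Its lowest heart in each genotype was the one numbered 2, opposite to the monocyte ligands. The means were 391 ± 104 CPM in Gpihbp1-/- hearts and 357 ± 211 CPM in wild-type hearts (SD, n = 4 each). The log2 fold change was 0.13 (SE 0.43), and it became 0.60 when wild-type 4 was left out and -0.10 when wild-type 2 was. Ackr3 (NCBI gene 12778), the atypical receptor that takes up Cxcl12, had 108, 49.9, 104 and 118 CPM in Gpihbp1-/- hearts, against 51.3, 71.8, 117 and 65.2 CPM in wild-type hearts. The hearts numbered 2 were again the lowest, and the groups overlapped (log2 fold change 0.32, SE 0.34). Cxcr4 (NCBI gene 12767), the signalling receptor of Cxcl12, had 17.8, 13.2, 9.10 and 12.6 CPM in Gpihbp1-/- hearts, against 19.4, 12.1, 8.12 and 2.81 CPM in wild-type hearts. Wild-type 6 was the lowest heart for Cxcr4, and without it the log2 fold change was -0.01 in place of 0.30 (SE 0.49).

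Cxcl14 (NCBI gene 57266), a homeostatic chemokine of epithelia and stroma, had 16.7, 35.0, 35.2 and 26.9 CPM in Gpihbp1-/- hearts, against 31.8, 20.5, 23.1 and 14.3 CPM in wild-type hearts. Both genotypes covered much the same range, with a log2 fold change of 0.34 (SE 0.31). Cxcl16 (NCBI gene 66102), a membrane-bound ligand of Cxcr6 and scavenger of oxidised lipoprotein, had 16.5, 52.7, 13.1 and 14.3 CPM in Gpihbp1-/- hearts, against 87.9, 18.5, 10.7 and 25.7 CPM in wild-type hearts. It was highest in the hearts numbered 2, with a log2 fold change of -0.56 (SE 0.69). Its receptor Cxcr6 (NCBI gene 80901), carried by resident T cells, had 0.884, 5.25, 0.881 and 0.565 CPM in Gpihbp1-/- hearts, against 6.34, 0.855, 0.524 and 0.422 CPM in wild-type hearts. Cxcr6 followed its ligand in being highest in the hearts numbered 2, and its log2 fold change was -0.12 (SE 0.99).

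Among the homeostatic chemokines, Ccl21a (NCBI gene 18829), which guides dendritic cells and T cells bearing Ccr7 into lymphatic vessels, had 76.2, 33.5, 47.6 and 50 CPM in Gpihbp1-/- hearts, against 55.6, 97.1, 15 and 68.0 CPM in wild-type hearts. The wild-type range enclosed the Gpihbp1-/- range, and the log2 fold change was -0.19 (SE 0.49). Ccl21d, a near-identical copy, had a log2 fold change of -0.25 (SE 0.51). Copies of Ccl21 share reads, so how these were divided is uncertain, and the same holds for Ccl27a and Ccl27b. Ccl27a (NCBI gene 20301), an attractant of skin-homing T cells, had 5.13, 3.02, 4.99 and 3.11 CPM in Gpihbp1-/- hearts, against 3.62, 9.31, 3.23 and 20.8 CPM in wild-type hearts. Its log2 fold change of -1.18 (SE 0.59, edgeR unadjusted p = 0.0742) was -0.43 without wild-type 6, the heart high in Myl4 and Myl7. Ccr7 did not pass the filter, with 0.177, 0.394, 0.392 and 0.0942 CPM in Gpihbp1-/- hearts, against 5.08, 0.95, 0.349 and 0.422 CPM in wild-type hearts.

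Ccl25 (NCBI gene 20300), known as the attractant of thymocytes and gut T cells through Ccr9, had 0.973, 1.44, 0.685 and 1.13 CPM in Gpihbp1-/- hearts, against 2.09, 1.90, 1.22 and 1.97 CPM in wild-type hearts. Only Gpihbp1-/- 2 reached into the wild-type range, and the log2 fold change was -0.75 (SE 0.38, edgeR unadjusted p = 0.0777, adjusted p = 0.99998). The eosinophil attractants Ccl11 and Ccl24, both ligands of Ccr3, overlapped in level. Ccl11 (NCBI gene 20292) was even across hearts, between 3.54 and 5.68 CPM in Gpihbp1-/- hearts and between 2.97 and 4.67 CPM in wild-type hearts. Ccl24 (NCBI gene 56221), made by resident macrophages, had 2.74, 1.05, 1.86 and 2.45 CPM in Gpihbp1-/- hearts, against 2.02, 3.71, 2.44 and 8.15 CPM in wild-type hearts. The log2 fold changes were 0.24 (SE 0.30) for Ccl11 and -1.0 (SE 0.52) for Ccl24. Ccl24 was lowest of its genotype in both hearts numbered 2, where Ccl6, Ccl8 and Ccl9 were highest.

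Pf4 and Ppbp are chemokines of platelet granules, and Pf4 is also made by tissue macrophages. Pf4 (NCBI gene 56744) had 19.4, 134, 22.3 and 19.3 CPM in Gpihbp1-/- hearts, against 149, 24.2, 12.6 and 58.0 CPM in wild-type hearts. Ppbp (NCBI gene 57349) had 3.54, 14.7, 6.27 and 0.283 CPM in Gpihbp1-/- hearts, against 4.39, 3.42, 0.437 and 11.5 CPM in wild-type hearts. Pf4 was highest in the hearts numbered 2, whereas Ppbp was highest in Gpihbp1-/- 2 and wild-type 6. The log2 fold changes were -0.32 (SE 0.87) for Pf4 and 0.35 (SE 1.02) for Ppbp. Among platelet markers Gp1bb, a subunit of the von Willebrand factor receptor, had the smallest p (log2 fold change -1.19, SE 0.77). The platelet integrin Itga2b had 3.98, 3.08, 4.50 and 0.754 CPM in Gpihbp1-/- hearts, against 2.44, 2.85, 0.873 and 13.2 CPM in wild-type hearts. Itga2b was highest in wild-type 6, and lowest in Gpihbp1-/- 4 and wild-type 5, where Ppbp was lowest too. The part of blood left in the tissue was not tested.

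Of the 4 atypical receptors 3 were tested, and 0 of these were highest in both hearts numbered 2, where 25.1% of all tested genes were. Ackr2 (NCBI gene 59289), which degrades inflammatory CC chemokines and is known from lymphatic endothelium, had 5.66, 2.82, 4.89 and 3.58 CPM in Gpihbp1-/- hearts, against 2.09, 3.52, 1.31 and 2.39 CPM in wild-type hearts. Only wild-type 4 reached above the lowest Gpihbp1-/- heart. The means were 4.24 ± 1.28 CPM in Gpihbp1-/- hearts and 2.33 ± 0.915 CPM in wild-type hearts (SD, n = 4 each). Ackr2 had a log2 fold change of 0.86 (SE 0.39, 95% interval -0.01 to 1.74, edgeR unadjusted p = 0.0533, adjusted p = 0.99998). Ackr4 (NCBI gene 252837), which scavenges Ccl21 and Ccl25, had 5.48, 2.17, 7.64 and 5.84 CPM in Gpihbp1-/- hearts, against 3.69, 3.42, 4.37 and 2.67 CPM in wild-type hearts. Gpihbp1-/- 2 was the lowest of all 8 hearts for Ackr4, and the other 3 Gpihbp1-/- hearts lay above every wild-type heart. Its log2 fold change over all 8 hearts was 0.57 (SE 0.40, edgeR unadjusted p = 0.185, adjusted p = 0.99998). Over the 6 hearts without those numbered 2, the log2 fold changes were 0.97 (SE 0.42, unadjusted p = 0.0469) for Ackr2 and 0.84 (SE 0.31, unadjusted p = 0.0248) for Ackr4, with an edgeR adjusted p of 0.99999 for both. Lyve1, a marker of lymphatic endothelium and resident macrophages, had 24.3, 23.7, 25.4 and 25.3 CPM in Gpihbp1-/- hearts, against 12.0, 18.9, 21.4 and 16.6 CPM in wild-type hearts, a log2 fold change of 0.52 (SE 0.21, edgeR unadjusted p = 0.0374, adjusted p = 0.99998). Prox1, the transcription factor of lymphatic endothelium, overlapped between genotypes, at 31.2, 29.5, 52.5 and 56.1 CPM in Gpihbp1-/- hearts and 22.9, 27.0, 86.9 and 24.9 CPM in wild-type hearts. The part of lymphatic cells in the receptor values was not tested. Ackr1, a chemokine-binding protein of venules and red cells, did not pass the filter. It was highest in the hearts numbered 2, at 1.71 CPM in Gpihbp1-/- 2 and 1.74 CPM in wild-type 2.

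Of the 23 members that did not pass the filter, 11 reached at least 1 CPM in some heart and 12 stayed under 1 CPM in every heart. Fewer than 10 counts over all 8 libraries were recorded for 5 of them. Ccl22, a dendritic cell ligand of Ccr4, had 0.0884, 0.394, 0.196 and 0 CPM in Gpihbp1-/- hearts, against 5.22, 0, 0.0873 and 0.562 CPM in wild-type hearts, so 1 wild-type heart held nearly all of it. Ccr3, the receptor of Ccl11 and Ccl24, had reads in the hearts numbered 2 alone, at 0.459 CPM in Gpihbp1-/- 2 and 0.418 CPM in wild-type 2. At this depth, genotype differences of such members were not detectable. Lymphocyte markers were low as well: B cell markers summed to 2.07 to 3.41 CPM in Gpihbp1-/- hearts and 3.06 to 8.15 CPM in wild-type hearts. Dendritic cell markers, among them Ccr7 and Xcr1, summed to 26.1 to 48.6 CPM in Gpihbp1-/- hearts and 27.3 to 75.6 CPM in wild-type hearts. Zbtb46 made up most of the sum in each heart except wild-type 2, with 46.5 of 48.6 CPM in Gpihbp1-/- 1. The other dendritic cell markers listed included several that were highest in wild-type 2. Flt3 had 6.83 CPM there and at most 0.656 CPM elsewhere. Itgax had 18.5 CPM there and at most 7.55 CPM elsewhere. Cd209a was highest there too and stayed at 0.703 CPM or lower elsewhere. Mast cell markers summed to 4.07 to 15.9 CPM in Gpihbp1-/- hearts and 6.55 to 18.2 CPM in wild-type hearts. Kit alone had 11.9, 3.48, 2.45 and 8.67 CPM in Gpihbp1-/- hearts, against 3.76, 9.69, 8.12 and 1.83 CPM in wild-type hearts. The other mast cell markers each stayed at 3.79 CPM or lower.

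Members that were high in 1 heart of a genotype were mostly high in the one numbered 2. Both were the highest of their genotype for 18 of the 34 tested members (52.9%), where 25.1% of all tested genes showed this. The 18 comprised 12 ligands and 6 of the 7 tested receptors. Both were the lowest for 3 members, Cxcl12, Ackr3 and Ccl24 (8.82%, against 20.5% of all tested genes). In both genotypes 13 members had at least 4 times the median of the other 3 hearts in the heart numbered 2 (38.2%, against 3.97% of all tested genes). Among the largest ratios, Ccl2 in Gpihbp1-/- 2 was 27.6 times the median of the other Gpihbp1-/- hearts, and in wild-type 2 it was 9.77 times that of the other wild-type hearts. For Ccr2 the ratios were 16.2 in Gpihbp1-/- 2 and 44.3 in wild-type 2, and for Cxcl10 they were 13.3 in Gpihbp1-/- 2 and 51.1 in wild-type 2. These shares describe the libraries, and the members were chosen with earlier results of the same libraries known.

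**Figure D4:**
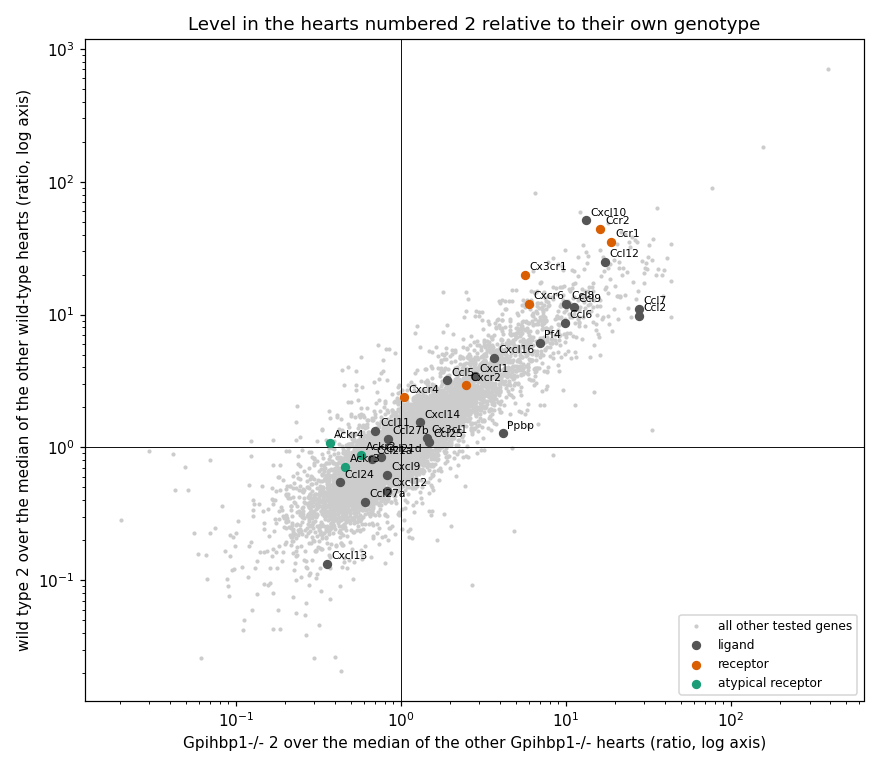
Levels of tested members in Gpihbp1-/- 2 over the median of the other Gpihbp1-/- hearts (horizontal, log axis) against wild-type 2 over the median of the other wild-type hearts (vertical, log axis), with the other tested genes in grey. Ccl2 lies at 27.6 for Gpihbp1-/- 2 and 9.77 for wild-type 2, and Cxcl12 at 0.821 for Gpihbp1-/- 2 and 0.471 for wild-type 2.

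Between these 2 hearts some members differed well beyond counting error. Gpihbp1-/- 2 held 1.91 times the Ccl2 level of wild-type 2 (95% exact binomial interval 1.76 to 2.07), 1.59 times its Ccl7 (1.48 to 1.72) and 1.57 times its Ccl6 (1.5 to 1.64). Ccl12 was level between them, at a ratio of 0.989 (0.878 to 1.11). In the opposite direction, Ccr2 stood at 0.578 (0.539 to 0.619), Cx3cr1 at 0.335 (0.294 to 0.381), Ccr7 at 0.0774 (0.0275 to 0.177) and Ccl22 at 0.0754 (0.0268 to 0.172). Cxcr2 stood at 3.16 (1.89 to 5.49) and Ppbp at 3.35 (2.52 to 4.50). The ratios compare 1 library with 1 library, and the intervals cover counting error only, so they say nothing of the genotypes.

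Many members lie in clusters of neighbouring genes, which allows levels to be read along the chromosome. In the gene order of GRCm38.p6, counting the protein-coding genes listed, Ccl2, Ccl7, Ccl11, Ccl12, Ccl8 and Ccl1 are consecutive on chromosome 11, as are Ccl5, Ccl9, Ccl6, Ccl3 and Ccl4 further along. In the first run Ccl2, Ccl7, Ccl12 and Ccl8 were at 10.1 to 27.7 times the median of the other hearts of the genotype in Gpihbp1-/- 2 and at 9.77 to 24.9 times in wild-type 2. Ccl11, in their midst, was at 0.703 times in Gpihbp1-/- 2 and 1.33 times in wild-type 2. In the second run Ccl5 was at 1.90 times in Gpihbp1-/- 2 and 3.19 times in wild-type 2, whereas its neighbours Ccl9, Ccl6, Ccl3 and Ccl4 were at 7.18 times or more in both hearts. Of the 14 members on chromosome 11, tested or not, 11 were highest in both hearts numbered 2. Of the 6 on chromosome 4, home of the Ccl21 and Ccl27 genes, 0 were. Among all 57 members 30 were, and among all tested genes 25.1% were. Untested members such as Ccr7 counted on few reads. Whether chromosomal position had a part in this was not tested.

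On chromosome 5, Cxcl5, Ppbp, Pf4, Cxcl3, Cxcl1 and Cxcl2 are consecutive, with Cxcl9 and Cxcl10 further along. Cxcl10 was at 13.3 times the median in Gpihbp1-/- 2 and 51.1 times in wild-type 2, and Cxcl9 at 0.821 times in Gpihbp1-/- 2 and 0.621 times in wild-type 2. On chromosome 9 the receptors Cxcr6, Xcr1, Ccr1, Ccr3 and Ccr2 lie close together. There Ccr1 was at 18.7 times in Gpihbp1-/- 2 and 35.4 times in wild-type 2. Xcr1, the receptor of cross-presenting dendritic cells, was at 2.01 times in Gpihbp1-/- 2, on 3 counts, and at 6.38 times in wild-type 2, on 24 counts. On chromosome 8, Ccl22 was at 4.45 times in Gpihbp1-/- 2 and 59.8 times in wild-type 2, while its neighbour Cx3cl1 was at 1.44 times in Gpihbp1-/- 2 and 1.18 times in wild-type 2.

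**Figure D5:**
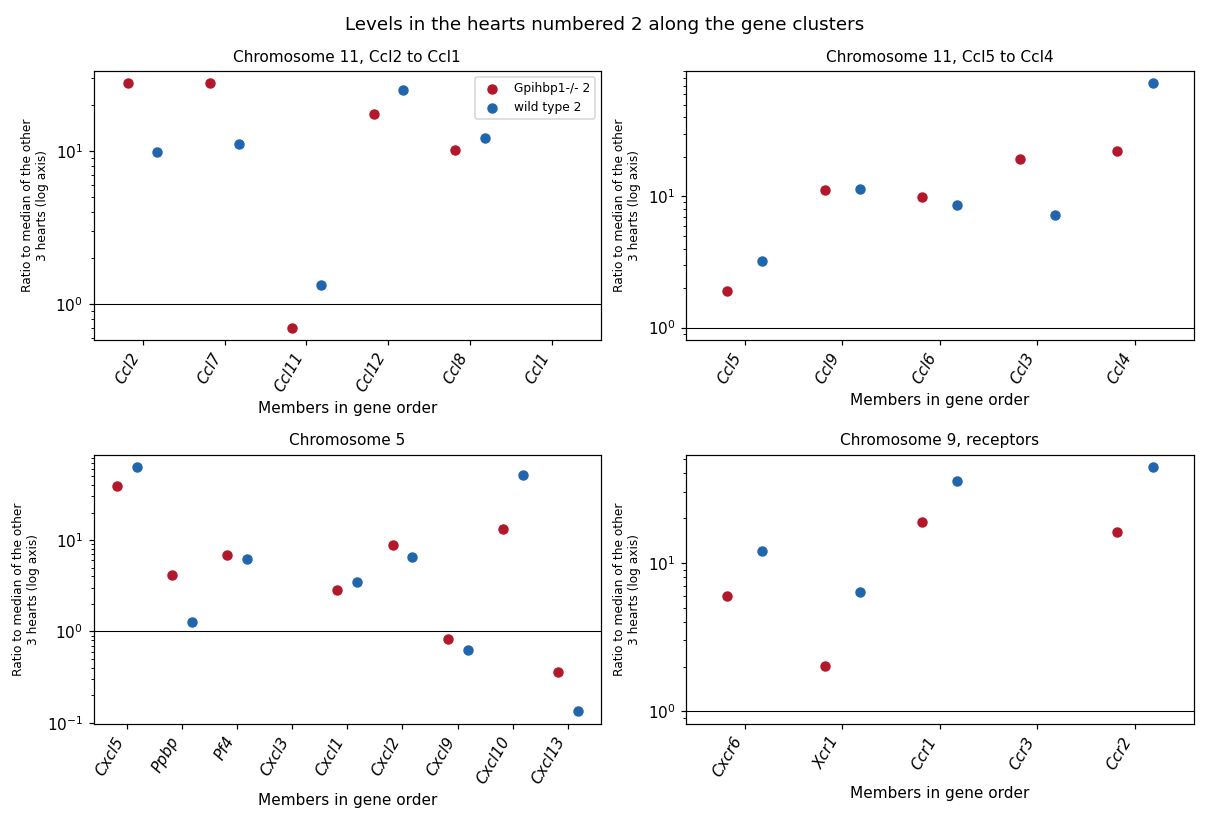
Level in Gpihbp1-/- 2 and wild-type 2, each over the median of the other 3 hearts of its genotype (log axis), for members in their order along the clusters on chromosomes 11, 5 and 9. Ccl11 and Cxcl9 lie near 1 beside neighbours far above it. Ccl1, Cxcl3 and Ccr3 have no point because the median of the other hearts is 0.

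No gene of the wider pathway passed the test either. Of 135 genes named in 5 lists 132 were in the table and 119 were tested. edgeR called 0 of them, as did limma-voom and, among the 103 to which it gave a p, DESeq2, and in edgeR 0 had an unadjusted p under 0.05 in either direction. Their log2 fold changes were positive for 42 (35.3%, against 47.1% of all tested genes), with a median of -0.087. In both hearts numbered 2, 74 of the 119 were highest of their genotype (62.2%, against 25.1% of all tested genes).

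By role, the 45 tested genes of signal transduction below the receptors had 18 positive and 27 negative fold changes. The one with the smallest p was Gng11, a G protein gamma subunit, at 60, 35.2, 38.8 and 36.0 CPM in Gpihbp1-/- hearts, against 58.3, 98.9, 26 and 169 CPM in wild-type hearts (log2 fold change -1.05, SE 0.49). Of 15 tested genes that desensitise the receptors 3 were positive and 12 negative, and Rgs10, which shortens G protein signals in myeloid cells, had a log2 fold change of -1.01 (SE 0.77). Of 29 transcription factors and kinases that act on chemokine genes 11 were positive and 18 negative. Among these Atf3, a stress-induced repressor, had 4.78, 19.8, 8.52 and 6.41 CPM in Gpihbp1-/- hearts, against 37.0, 15.1, 9.52 and 11.1 CPM in wild-type hearts. Of 18 tested cytokines and their receptors 7 were positive and 11 negative. Il1rl1, the receptor of interleukin 33, had the smallest p (log2 fold change -0.75, SE 0.42). Il1b, a cytokine that induces Ccl2 and Cxcl1, had 2.30, 5.84, 3.92 and 0.283 CPM in Gpihbp1-/- hearts, against 21.0, 1.62, 0.437 and 1.69 CPM in wild-type hearts. Of 13 related chemoattractant genes 4 were positive and 9 negative. Rarres2, the precursor of the attractant chemerin, had the smallest p (log2 fold change -0.69, SE 0.37). Cd74, the invariant chain and receptor of Mif, had 278, 227, 299 and 195 CPM in Gpihbp1-/- hearts, against 1350, 360, 186 and 243 CPM in wild-type hearts, a log2 fold change of -1.10 (SE 0.61).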

How the data were processed

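Polyadenylated RNA of 4 Gpihbp1-/- and 4 wild-type hearts was sequenced on a DNBSEQ instrument, per the labels' protocols. A part of the protocol text speaks of rat tissue, although mouse is the labelled organism throughout. HISAT, Bowtie2 and GRCm39 are named in the submitters' processing notes, and which program counted the reads is not given in any source used here. Per the file headers, 1 table held per-library read counts with TPM and FPKM values, and the authors deposited the read numbers as estimated counts that need not be whole (4.32% to 5.89% of a library's values were not, at a tolerance of 0.001). Fractional values occurred for Ackr1, Ccl19, Cxcr2 and the Ccl21 and Ccl27 copies. A further 8 per-sample columns were empty and were not used.

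Estimated counts were rounded and tested with edgeR 4.0.16 in R 4.3.3: filterByExpr (minimum count 10, minimum total 15), TMM scaling, robust quasi-likelihood without covariates, Benjamini-Hochberg over all 12826 tested genes, threshold 0.05. Standard errors are the log2 fold change over the root of F. The biological coefficient of variation over the tested genes came to 43.7%. No pair of libraries agreed within sampling noise (lowest chi-square per degree of freedom 7.46). Alternatives were other scalings and filters, DESeq2 1.42.0, limma-voom (limma 3.58.1), a block by label number and leaving libraries out.

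Given in full were members tested with a mean of at least 5 CPM, the 5 with the smallest p, and 7 genes of the heart's best-known axes; 1 more member, part of all fits and totals, is left out of the text and figures. Other members singled out, and Cd68, Timd4, Ly6g, Csf3r, Cd209a, Flt3, Prox1 and Myl7, were named after their values were seen. The other pathway and marker genes were taken from the 4 with the smallest p in their list. The members, pathway lists and marker lists were chosen with earlier results of these data known. Promoters and gene order came from RefSeq on GRCm38.p6, which matched all 57 members by gene identifier and held promoters of 45. Since the counted genes are of another build, their coordinates are not given. Intervals on ratios of 2 libraries cover counting error only, since amplified reads were not counted as single molecules.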

Additional observations from a re-analysis of the deposited data

Results flagged for a closer look

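In 22 of 52 groups of 4 hearts (the 26 genes given in full, in each genotype), 1 heart lay so far from the other 3 that its gap to the nearest, as a share of the group's range, passed Dixon's critical value at the 95% level. Chance marks about 1 group in 20 only for independent, normally distributed values. Whether CPM are so distributed was not tested, and genes from the same hearts are not independent. The heart was Gpihbp1-/- 2 in 12 groups and wild-type 2 in 10, and it was the highest each time. Some of the 26 genes reached the mean of 5 CPM only through the hearts numbered 2. Cxcl10, for example, was at 22.6 CPM in Gpihbp1-/- 2 and 29.1 CPM in wild-type 2, and at most 2.56 CPM elsewhere. The count of 22 is therefore no independent evidence about those hearts. Dixon's rule marked 14.7% of all tested genes in Gpihbp1-/- hearts and 12.0% in wild-type hearts.

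In Gpihbp1-/- hearts the gap took up a share of the range of 0.963 for Ccl2, 0.977 for Ccl7, 0.896 for Ccl12 and 0.956 for Ccr2, the genes of the monocyte axis. In wild-type hearts it took up 0.927 for Ccl2, 0.938 for Ccl7, 0.929 for Ccl12 and 0.989 for Ccr2. Among the other macrophage ligands, the Gpihbp1-/- hearts gave 0.949 for Ccl6, 0.974 for Ccl9 and 0.865 for Ccl8. The wild-type hearts gave 0.878 for Ccl6, 0.867 for Ccl9 and 0.89 for Ccl8. The receptors and Cxcl10 followed, with 0.955 for Ccr1, 0.895 for Cx3cr1 and 0.914 for Cxcl10 in Gpihbp1-/- hearts. Their wild-type values were 0.977 for Ccr1, 0.975 for Cx3cr1 and 0.976 for Cxcl10. Cxcl16, at 0.916, and Pf4, at 0.974, were marked in Gpihbp1-/- hearts and not in wild-type hearts. Macrophage and fibroblast markers were highest in the same hearts, and their part in these gaps was not tested.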

How the results depend on the processing

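No member passed the adjusted threshold under any alternative run with edgeR or limma-voom, nor with DESeq2 among the 23 of 34 members to which it gave a p. Of the 26 genes given in full, 8 kept the sign of their fold change in each alternative that could be fitted (Ackr2, Ackr3, Ccl25, Ccl27a, Ccl5, Cxcl14, Cxcl9 and Cxcr2, which did not pass the filter without both hearts numbered 2) and 18 changed it at least once; scaling by RLE, upper quartile or total counts and other filters changed none. Total-count scaling moved the median log2 fold change of all genes to 0.081. FPKM in place of TPM shared 9 of the top 10 members. Against 4 genes called over the whole table, DESeq2 called 8 and the replicate block 168. Members at an unadjusted p under 0.05 numbered 1 higher and 0 lower. The higher count was 0 with limma-voom (0.281% of all genes), 0 with the block (5.8%), 3 without both hearts numbered 2 (0.454%) and 6 without these and wild-type 6 (1.0%). The lower count was 1 without a filter (Ccr7; 0.839% of all genes) and 1 with DESeq2 (Ccl27a; 1.44%).

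The block joins the label numbers 2 and 4, which only 2 pairs share. Genotype was thus estimated from these 2 pairs alone, and almost nothing was left from which to measure the spread. Its p-values and counts of genes called are therefore not comparable with those of the other fits. Deviations from the genotype means correlated at 0.91 for number 2 and 0.11 for number 4. The labels do not say that numbers mark a shared batch, so the samples share only a number. Under the replicate block 8 members had an unadjusted p under 0.05, all lower, where 5.49% of all genes were lower and 5.8% higher (smallest adjusted p 0.0638, Ccl5), and 5 pathway genes were called. Its log2 fold changes were -0.05 for Ccl7, 0.13 for Cxcl10, -0.07 for Cxcl12 and -0.26 for Cxcr4, with 0.23 for Ackr2 (unadjusted p 0.619) and 0.01 for Ackr4 (unadjusted p 0.975).

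limma-voom turned Ccl2 to -0.09, Ccl7 to -0.03, Ccl21a to 0.03, Ccl21d to 0.06, Ccr1 to 0.61 and Cxcl10 to 0.69. Without both hearts numbered 2 the log2 fold change was -0.44 for Ccl2, -0.37 for Ccl7, -0.10 for Ccl9, 1.0 for Ccr1, 0.44 for Ccr2, 0.32 for Cx3cr1 and -0.56 for Ppbp. Without wild-type 6 as well it was -0.19 for Ccl2, -0.15 for Ccl7, 0.05 for Ccl21a, 1.11 for Ccr1, 0.31 for Ccr2, -0.14 for Cx3cl1, 0.20 for Cx3cr1, 1.70 for Cxcl10, -0.29 for Cxcl12 and 0.15 for Pf4. The cause of these reversals was not tested.

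When 1 library was left out, 2 to 3 genes were called over the whole table. Members at an unadjusted p under 0.05 then numbered 0 to 7 higher and 0 to 2 lower. Over all genes the shares were 0.138% to 2.57% higher and 0.261% to 3.88% lower; without wild-type 2, which gave the 7, they were 1.3% higher and 0.96% lower. The median member log2 fold change ran from -0.85 without Gpihbp1-/- 2 to 0.58 without wild-type 2. Ranges over the 8 fits were -2.22 to 2.49 for Ccl2, -2.41 to 2.55 for Ccl7, -1.69 to 2.64 for Ccl12, -3.06 to 2.83 for Ccr2, -1.16 to 2.02 for Ccl6, -1.64 to 1.76 for Ccl9, -1.15 to 2.33 for Ccl8, -2.46 to 3.17 for Ccr1, -2.12 to 1.33 for Cx3cr1, -0.03 to 0.27 for Cx3cl1, -2.24 to 3.32 for Cxcl10, -0.10 to 0.60 for Cxcl12, -0.01 to 0.76 for Cxcr4, -1.29 to 0.40 for Cxcl16, -0.51 to 0.18 for Ccl21a, -0.58 to 0.10 for Ccl21d, -1.58 to 0.64 for Pf4 and -0.53 to 1.16 for Ppbp. Members under a few CPM are limited by depth.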

Other observations

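Summed by class, the 12 inducible CC chemokines listed had 36.7, 377, 33.1 and 21.6 CPM in Gpihbp1-/- 1, 2, 3 and 4, against 267, 30.5, 16.8 and 43.6 CPM in wild-type 2, 4, 5 and 6. The 7 inducible CXC chemokines had 35.6, 111, 24.4 and 27.1 CPM in Gpihbp1-/- hearts, against 144, 47.5, 20.3 and 40.6 CPM in wild-type hearts. Both classes were highest in the hearts numbered 2. The 11 homeostatic chemokines, of which Cxcl12 made up most, had 664, 411, 487 and 442 CPM in Gpihbp1-/- hearts, against 295, 805, 440 and 351 CPM in wild-type hearts. Their lowest sums were in the hearts numbered 2.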
